A study of Mus musculus with 29 samples.

Results

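Fluoxetine was compared with vehicle in the prefrontal cortex of mice heterozygous for the K228E allele of Tbr1. The members are the 8 libraries of heterozygous (HT) mice given fluoxetine (4 females, 4 males) and the 6 libraries of HT mice given vehicle (3 females, 3 males). They were chosen by the genotype, drug and sex in the library names, and make up 14 of the 29 libraries of the series. The mutant allele, the strain (C57BL/6J), the age (postnatal day 40), the tissue and the recorded batch were shared by both groups, so the comparison asks which transcripts differed between drug and vehicle in carriers. The series also holds 7 HT lithium and 8 wild-type (WT) vehicle libraries, and no WT mice given fluoxetine are among them. Dose, route and duration of treatment are not in the labels, which also do not say whether a library holds 1 animal or a pool. p-values therefore measure the spread between these libraries.

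Fluoxetine is a selective serotonin reuptake inhibitor that blocks the serotonin transporter on the axons of raphe neurons. These axons reach the whole cortex, where released serotonin acts on receptors of pyramidal cells and interneurons, among them the inhibitory Htr1 and the excitatory Htr2 families. The receptors act partly through cyclic AMP, protein kinase A and the transcription factor CREB, which with neuronal activity drives immediate early genes such as Fos, Arc and Egr1 and the growth factor Bdnf. Tbr1, an autism risk gene, is a regulator of the T-box family that shapes the identity of layer 6 and other glutamatergic neurons of the cortex.

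Values are normalised read counts, that is, reads per gene divided by 1 size factor per library. The 14 libraries held 23.35 M to 31.35 M reads, with 1.767% to 2.379% of them in the most abundant gene. Cortical glutamatergic markers were present in every library, with Slc17a7, the vesicular glutamate transporter of cortical projection neurons, at 32387 or more. Markers of neighbouring tissue were uneven. In 4 fluoxetine libraries and no vehicle library, the striatal or olfactory marker list had a mean that exceeded the series median (29 libraries) by over 1 (log2). Striatal markers were high in HT fluoxetine female 2 and in males 1 and 2, and olfactory markers in female 1, and the main differences that depend on them are given with and without them.

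No gene differed between fluoxetine and vehicle past the threshold. Of 17457 genes tested with limma, with sex as a covariate and Benjamini-Hochberg adjustment, 0 (0%) had an adjusted p under 0.05, and the smallest adjusted p was 0.889. At an unadjusted p under 0.05 there were 948 genes (5.43%), of which 514 (2.94%) lay higher and 434 (2.49%) lower under fluoxetine, where 873 would be expected with no difference. On the recovered reads, edgeR and DESeq2 each called 0 genes, with 962 (5.51%) and 885 (5.07%) at an unadjusted p under 0.05. Without the 4 high-marker libraries limma called 0 of 17227 genes, with 1134 (6.58%) at that p. Differences are given below as log2 of fluoxetine over vehicle on the log2(value + 1) scale with their standard error (SE). All named genes failed the adjusted threshold, so their values describe these libraries.

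The precision sets how large an undetected difference could be. The 95% interval of the difference lay inside a 1.5-fold difference in either direction for 97.1% of the 13840 genes with a mean of at least 50. Among the 5842 genes with a mean of at least 1000, 99.2% had an interval inside 1.5-fold. Over all genes tested the share inside 1.5-fold was 85.1%. The median difference was -0.0045 with 47.8% of genes above 0 and 52.2% below, the middle 80% of genes lay between -0.15 and 0.13, and the median SE was 0.074. Estimates beyond a 2-fold difference were found for 77 genes, of which 18 had a mean of at least 50. Among those 18 were the striatal genes Drd2, Adora2a and Lrrc10b, the imprinted Dlk1, and several pseudogenes. Dlk1 was highest in the libraries with high striatal markers, at 227.6 in HT fluoxetine female 2 and 98.75 and 127.1 in males 1 and 2. It stood at 49.07 or below in all other libraries of both groups.

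**Figure D1:**
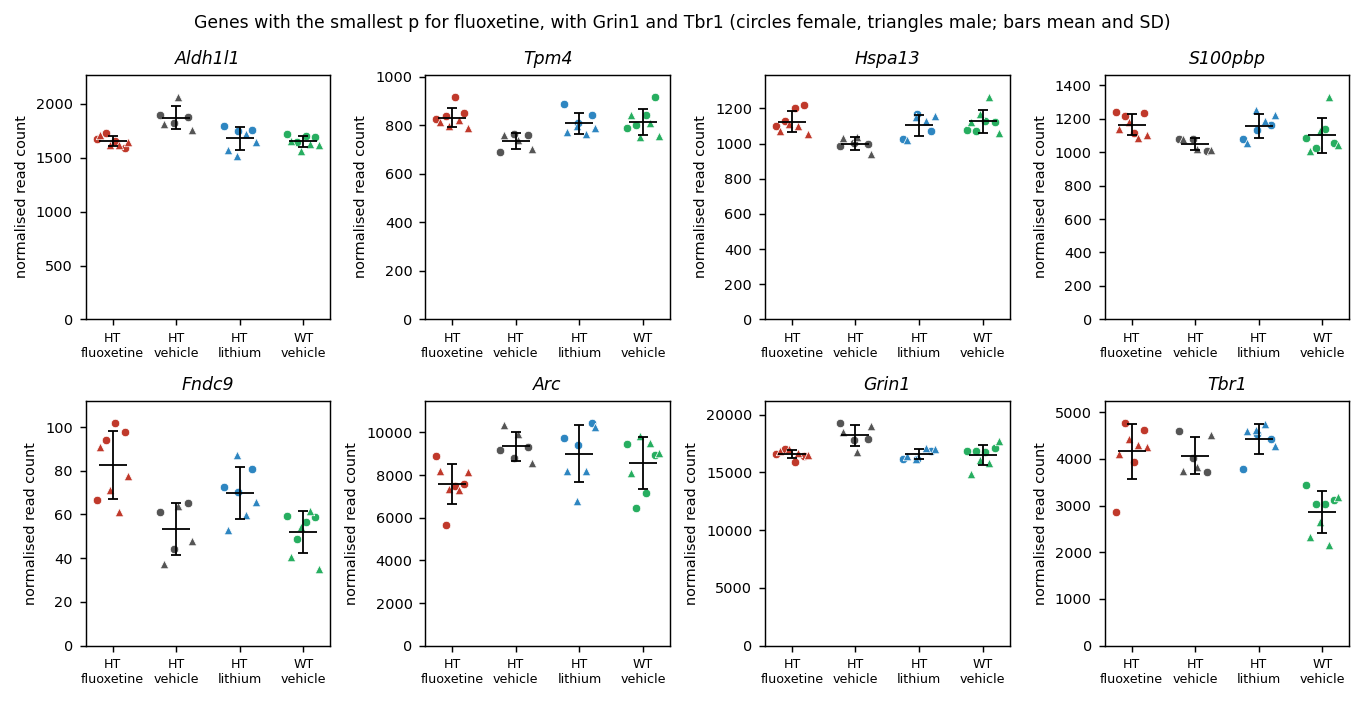
Normalised read count of 8 genes per library (y axes from 0) in HT fluoxetine, HT vehicle, HT lithium and WT vehicle mice, with circles for females, triangles for males and bars for mean and SD. For Aldh1l1, Tpm4, Hspa13 and S100pbp the 8 fluoxetine and 6 vehicle libraries do not overlap, for Fndc9, Arc and Grin1 they overlap, and for Tbr1 the vehicle range lies inside the fluoxetine range.

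Genes whose 8 fluoxetine and 6 vehicle libraries did not overlap numbered 11. How many would separate with no difference was not computed, so the count is not read as a drug difference. Of these, 6 (0.0344% of genes tested) lay higher under fluoxetine, namely Tpm4, Hspa13, S100pbp, Clvs2, Cebpz and Prom2, and 5 (0.0286%) lay lower, among them Aldh1l1, Stat2, Setd4 and A930016O22Rik. Apart from the sparsely read Prom2 and A930016O22Rik, these separations were of small size, with differences (log2) between -0.26 for Setd4 and 0.18 for Tpm4. Without the 4 high-marker libraries, which leaves 4 against 6, 173 genes (1%) were separated upward and 128 (0.743%) downward.

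The smallest p of all belonged to Aldh1l1 (chromosome 6, 90486427 to 90600203, GRCm38), a folate enzyme and marker of astrocytes that converts 10-formyltetrahydrofolate to tetrahydrofolate. Its lowest, median and highest counts were 1593, 1652 and 1732 under fluoxetine and 1762, 1853 and 2067 under vehicle. Every fluoxetine library lay below every vehicle library. The difference was -0.18 ± 0.039 (SE), with a 95% interval from -0.26 to -0.0945, or 0.885-fold. It stayed between -0.195 and -0.145 when any 1 library was left out, and stood at -0.20 without the 4 libraries with high markers. The HT lithium mean was 1681 ± 105 (SD, n = 7) and the WT mean 1654 ± 51.7 (SD, n = 8), both below HT vehicle at 1874 ± 106 (SD, n = 6). In the fit over 29 libraries fluoxetine minus lithium was -0.028 ± 0.032 (SE; limma adjusted p = 0.985), and HT vehicle minus WT was 0.18 (limma adjusted p = 0.0212), 1 of 29 genes (0.162%) called higher and 8 (0.0447%) lower with genotype. The comparisons with lithium and WT share the HT vehicle libraries with the fluoxetine comparison.

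Also lying lower, Grin1 (chromosome 2, 25291181 to 25319187), the subunit that every NMDA receptor needs, had counts of 15913, 16648 and 17007 under fluoxetine and 16784, 18194 and 19259 under vehicle. Only HT vehicle male 2, at 16784, reached into the fluoxetine range. The difference was -0.13 ± 0.037 (SE), or 0.91-fold, and the HT lithium and WT means were 16545 and 16496. Dpysl4, a collapsin response mediator protein of axon growth, had counts of 1621, 1864 and 1937 under fluoxetine and 1914, 2064 and 2109 under vehicle. The groups overlapped at their edges, and the difference was -0.16 ± 0.042 (SE). Jag2, a Notch ligand, had counts of 1415, 1531 and 1680 under fluoxetine and 1572, 1717 and 1825 under vehicle. Its groups overlapped, with a difference of -0.15 ± 0.043 (SE). Whrn, a scaffold protein of hair cells and neurons, lay at -0.16 ± 0.044 (SE). In the fit over 29 libraries Whrn was also among the genes with a genotype call, HT vehicle minus WT being 0.37 (limma adjusted p = 0.0039).

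The remaining genes of the lower set had differences of the same order. Zbtb17, a zinc finger partner of Myc, stood at -0.15, Ano8, an anoctamin membrane protein, at -0.11, Smg9, of the nonsense-mediated decay pathway, at -0.13, Ankrd24 at -0.18 and Jakmip3 at -0.16. Among the genes whose libraries separated, Stat2, a transcription factor of interferon signalling, had counts of 780.1, 813.6 and 855 under fluoxetine and 856.9, 883.2 and 923.5 under vehicle. The gap between both groups was thus about 2 counts wide. Setd4, a lysine methyltransferase gene, stood at -0.26 ± 0.081 (SE).

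Among the genes lying higher under fluoxetine, Tpm4 (chromosome 8, 72134975 to 72153142), an actin-binding tropomyosin, had counts of 789.5, 822.2 and 916 under fluoxetine and 689, 748.7 and 762.3 under vehicle. No libraries overlapped, and the difference was 0.18 ± 0.041 (SE), or 1.13-fold. Part of its transcript sequence is shared with Gm7809, which was not analysed here. Hspa13 (chromosome 16, 75745431 to 75767104), a heat shock protein of the Hsp70 family, had counts of 1055, 1106 and 1217 under fluoxetine and 939.9, 1002 and 1039 under vehicle. These did not overlap either, with a difference of 0.17 ± 0.039 (SE), and the HT lithium and WT means were 1103 and 1126. S100pbp, which encodes a binding partner of an S100 protein, had counts of 1083, 1158 and 1241 under fluoxetine and 1009, 1049 and 1081 under vehicle, a gap of about 2 counts. Its difference was 0.15 ± 0.039 (SE).

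Cops2, a subunit of the COP9 signalosome that acts on ubiquitin ligases, had counts of 1857, 2071 and 2286 under fluoxetine and 1745, 1834 and 1894 under vehicle. The groups overlapped only by the lowest fluoxetine library, and the difference was 0.17 ± 0.044 (SE). Naa15, the auxiliary subunit of the main N-terminal acetyltransferase, stood at 0.16 ± 0.041 (SE) and Rbm34, an RNA-binding protein gene, at 0.20 ± 0.051 (SE). Pkia, an inhibitor of protein kinase A, had counts of 3983, 4328 and 4586 under fluoxetine and 3612, 3834 and 4006 under vehicle. The 2 lowest fluoxetine libraries lay within the vehicle range, and the difference was 0.16 ± 0.042 (SE). Clvs2, a clathrin-associated lipid-binding protein gene, stood at 0.14 ± 0.037 (SE), and Cebpz, a CCAAT-binding factor, at 0.10 ± 0.031 (SE). For Tpm4, Hspa13, Cops2, Naa15 and Pkia, fluoxetine minus lithium lay between 0.011 and 0.046 in the fit over 29 libraries, in which 0 of 17881 genes were called between those drugs (0%) and 0 between lithium and vehicle (0%). In the same fit HT vehicle also lay below WT for these genes. HT vehicle minus WT was -0.18 for Clvs2, -0.023 for Cebpz and between -0.17 and -0.12 for Tpm4, Hspa13, Cops2, Naa15 and Pkia. None of these genotype differences passed the adjusted threshold. The differences from lithium and from WT share libraries with the fluoxetine comparison and give no separate support to it.

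Some of the higher genes had larger estimates and lower or less certain counts. Fndc9, a fibronectin domain gene, had counts of 61.08, 84.34 and 101.8 under fluoxetine and 37.15, 54.56 and 65.26 under vehicle. HT fluoxetine male 3, at 61.08, lay below the highest vehicle libraries and the other fluoxetine libraries lay above all of them. The difference was 0.63 ± 0.15 (SE), or 1.55-fold with an interval of the log2 difference from 0.32 to 0.94. Fndc9 lies inside Cyfip2 on the opposite strand, and since the strand setting of the counting is not stated, reads of both cannot be told apart with certainty. Lipg, endothelial lipase, stood at 0.38 ± 0.10 (SE). Nat8f3, an N-acetyltransferase gene that shares 55.7% of its transcript sequence with neighbours of its family, stood at 0.43 ± 0.12 (SE).

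Several genes with large estimates share nearly all of their sequence with another gene of the table, and they were summed with it. The subunit gene mt-Atp6 of ATP synthase had counts of 9456, 15942 and 22466 under fluoxetine and 6219, 8994 and 14740 under vehicle. It shares 99.5% of its 31-base words with Gm10925, a nuclear copy on chromosome 1 that is counted as a gene of its own and held 109321 to 168451 counts. Alone, mt-Atp6 differed by 0.79 and Gm10925 by 0.15. The sum of both genes had counts of 142674, 174328 and 184563 under fluoxetine and 118647, 154946 and 168379 under vehicle, which overlap widely. It differed by 0.21 (two-sided exact permutation p = 0.0513), a value set mostly by Gm10925, which holds most of the counts.

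For mt-Co2, a cytochrome c oxidase subunit gene, HT fluoxetine females 2, 3 and 4 lay between 33752 and 42146. The other 11 libraries of the comparison lay between 78934 and 114607. Its counts were also low outside the comparison in HT lithium males 1, 2 and 4, at 35522, 37226 and 30843. Its copy Gm28661 reached 200832 under fluoxetine and 123420 under vehicle. The difference was -0.44 for mt-Co2 alone (two-sided exact permutation p = 0.224) and 0.14 for the sum (p = 0.0866 in the same exact permutation test), so the direction turned with the sum. It also shares 47.1% of its words with Gm13341, which is not in that sum. For mt-Co3 the difference was 0.59 alone and 0.11 with its copy Gm28437. Pagr1a, a gene of a histone methyltransferase complex, had counts of 8.136, 22.97 and 61.94 under fluoxetine and 35.49, 53.53 and 371.5 under vehicle, with HT vehicle male 2 at the top. It shares 93.2% of its words with Gm42742, which held 1828 to 2879 counts and differed by -0.042. Pagr1a alone differed by -1.75 and the sum by -0.098, and since Gm42742 holds nearly all of the sum, the sum says little about Pagr1a. These sums were computed after the data were seen.

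**Figure D2:**
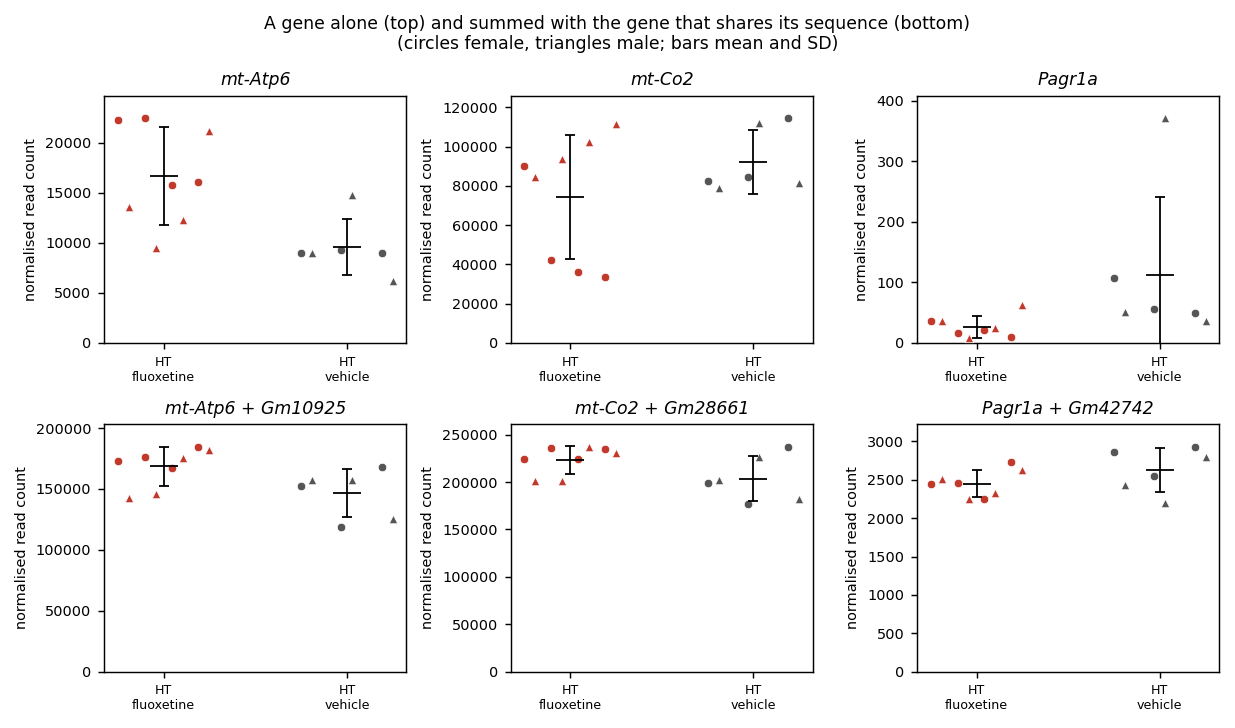
Normalised read count per library (y axes from 0) of mt-Atp6, mt-Co2 and Pagr1a alone (top) and summed with the gene that shares 93.2% or more of their sequence (bottom), for 8 HT fluoxetine and 6 HT vehicle libraries, with circles for females, triangles for males and bars for mean and SD (cut at 0 for Pagr1a under vehicle). HT fluoxetine females 2, 3 and 4 stand apart for mt-Co2 alone and lie among the other libraries in its sum, while the Pagr1a sum is nearly all Gm42742.

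Among all 13 mitochondrially encoded protein genes, mt-Atp6, mt-Co2 and mt-Co3 included, 11 lay above 0, with a median of 0.15 and 6 at an unadjusted p under 0.05. Over all genes tested 47.8% lay above 0 and 2.94% lay higher at that p. The list mean (log2, centred on 29 libraries) had a median of -0.033 under fluoxetine and -0.070 under vehicle. It was lowest in HT vehicle female 2 (-0.30) and male 3 (-0.32), and WT libraries ranged from -0.25 to 0.50. Without HT vehicle female 2 the median difference was 0.091. Quantile normalisation took the list median of 0.15 to 0.021 and the complex I subunit mt-Nd1 from 0.23 to -0.0041. The direction of that gene thus depended on the scaling. Quantile normalisation gives every library the same set of values, which by construction narrows differences of very abundant genes such as mt-Nd1. It therefore cannot decide whether these genes differed. Median ratio rescaling left the list median at 0.149. Nuclear genes of oxidative phosphorylation had a median of 0.003, with 29 of 54 above 0 and 0 at an unadjusted p under 0.05.

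The serotonin pathway, on which the drug acts, showed no member past the threshold. Of its 22 genes, 19 were tested, and Slc6a4, the transporter that fluoxetine blocks, Htr2b and Htr3b were not analysed here. Above 0 were 14 of 19, with a median of 0.038, beside 47.8% and -0.0045 over all genes. The median was 0.083 (13 of 19) without the 4 high-marker libraries, 0.12 (17 of 19) with the marker covariates and 0.079 without HT fluoxetine male 1. At an unadjusted p under 0.05 there were 2 higher and 0 lower genes of the 19, beside 2.94% higher and 2.49% lower over all genes. Htr2a (chromosome 14, 74640840 to 74709494), the excitatory receptor of deep-layer pyramidal cells, had counts of 1235, 1465 and 1574 under fluoxetine and 1171, 1310.5 and 1496.5 under vehicle. The groups overlapped over most of their range, the difference was 0.12 ± 0.053 (SE), and the WT mean was 1522 ± 150 (SD, n = 8).

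Htr1b, an inhibitory receptor that also sits on serotonin terminals, had counts of 215.4, 315.4 and 447.5 under fluoxetine and 214.8, 246.7 and 295.4 under vehicle. The highest fluoxetine libraries stood above all vehicle libraries and the lowest within them, and the difference was 0.33 ± 0.14 (SE). It was 0.27 without the 4 high-marker libraries and 0.16 with both marker means as covariates, and striatal neurons express Htr1b too. Of its 31-base words 18.2% are shared with other loci, mainly D430036J16Rik. The related Htr1d stood at 0.61 ± 0.29 (SE), with 0.35 and 0.25 under the same alternatives. Htr4 stood at 0.77 ± 0.46 (SE) and at 0.17 with the covariates, from a mean of 31 counts.

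Htr1a, the inhibitory receptor of pyramidal cells and of raphe neurons, had counts of 388.5, 517.3 and 571.8 under fluoxetine and 423, 482.4 and 540.3 under vehicle. The vehicle range lay inside the fluoxetine range, and the difference was 0.068 ± 0.082 (SE), with an interval from -0.11 to 0.24. Htr2c stood at 0.29 ± 0.15 (SE), Htr3a, the ion channel subunit of interneurons, at 0.023 ± 0.099 (SE), Htr5a at -0.005 ± 0.054 (SE), Htr6 at -0.012 ± 0.13 (SE) and Htr7 at 0.027 ± 0.087 (SE). Of the enzymes, Ddc, which makes serotonin and dopamine from their precursors, stood at 0.23 ± 0.11 (SE), Maoa, which degrades serotonin, at 0.076 ± 0.047 (SE) and Maob at -0.025 ± 0.051 (SE). S100a10, the adaptor p11 that binds serotonin receptors, stood at 0.038 ± 0.081 (SE). The synthesis genes Tph1 and Tph2 and the vesicular transporter Slc18a2 held few counts in cortex, where serotonin neurons have no cell bodies, and their intervals reached from -0.345 or below to 0.52 or above.

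**Figure D3:**
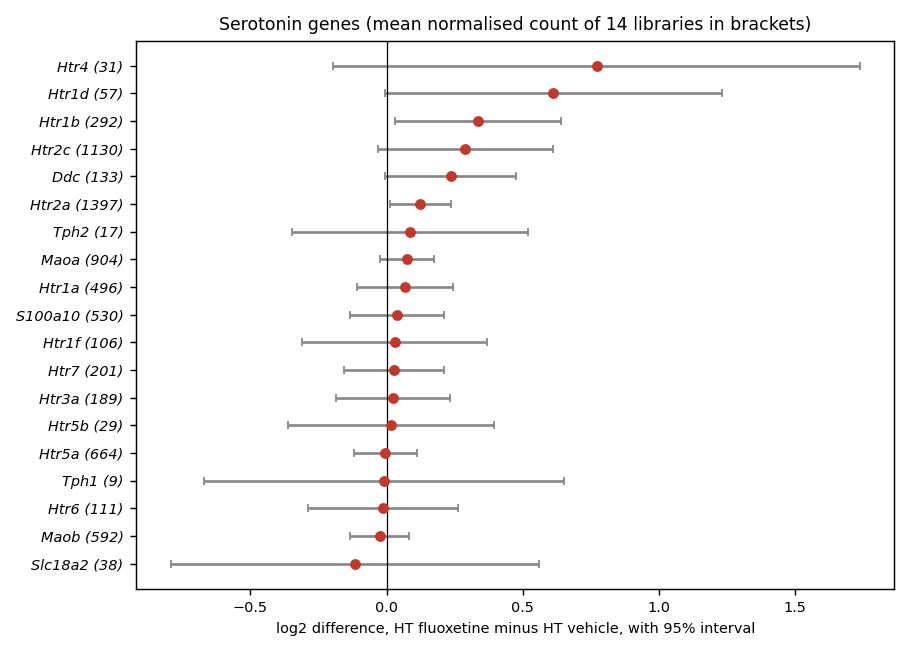
Log2 difference of HT fluoxetine minus HT vehicle (x axis) with its 95% interval for the 19 serotonin genes tested, ordered by size, with the mean normalised read count of the 14 libraries in brackets. The intervals of Htr1b and Htr2a lie above 0 before adjustment and those of the other 17 genes include 0.

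Immediate early genes, which report recent neuronal activity, lay lower on balance. Of 44 genes, 43 were tested, with 15 above 0, a median of -0.070, 0 higher and 6 lower at an unadjusted p under 0.05, beside 2.49% lower over all genes. The median was -0.058 without the 4 high-marker libraries and 0.001 with the marker covariates. It lay between -0.11 and -0.025 when any 1 library was left out, the latter without HT fluoxetine female 2. The list mean of that library was the lowest of the 14.

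Arc (chromosome 15, 74669083 to 74672570), which encodes a postsynaptic regulator of AMPA receptor traffic, had counts of 5654, 7528 and 8880 under fluoxetine and 8584, 9243 and 10368 under vehicle. HT fluoxetine female 1, at 8880, reached above the lowest vehicle libraries, and the other 7 fluoxetine libraries lay below all of them. The difference was -0.31 ± 0.078 (SE), or 0.804-fold, with an interval from -0.48 to -0.15. It stood at -0.29 without the high-marker libraries and at -0.21 with the covariates. Fluoxetine minus lithium was -0.26 ± 0.089 (SE; limma adjusted p = 0.985), and the WT mean was 8562 ± 1221 (SD, n = 8).

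The transcription factor genes of the set were nearer to 0. Junb had counts of 1840, 2547 and 2911 under fluoxetine and 2425, 2858 and 3936 under vehicle, and most libraries of both groups overlapped. Its difference was -0.24 ± 0.099 (SE). Jun stood at -0.13 ± 0.056 (SE), Egr4 at -0.13 ± 0.062 (SE), Egr1 at -0.13 ± 0.062 (SE) and Ier2 at -0.28 ± 0.13 (SE). Fos, the gene most used as an activity marker, stood at -0.25 ± 0.14 (SE). HT vehicle males 1 and 2, at 2360 and 2524, lay above all fluoxetine libraries (1176 to 1954) and were also the highest for Junb. The other vehicle libraries, between 1347 and 1634, lay within the fluoxetine range of Fos.

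RefSeq promoters (GRCm38.p6, 250 bases before to 50 after the start) were on hand for 3 of the 6 genes at an unadjusted p under 0.05, and are shown because these genes are known to answer to CREB or to activity. Capitals mark TGACG or its complement CGTCA, the core of the site that CREB binds. Both letter strings were searched on the printed strand, and they share letters only in the palindrome TGACGTCA.
Jun, chr4:95052173-95052472, minus strand: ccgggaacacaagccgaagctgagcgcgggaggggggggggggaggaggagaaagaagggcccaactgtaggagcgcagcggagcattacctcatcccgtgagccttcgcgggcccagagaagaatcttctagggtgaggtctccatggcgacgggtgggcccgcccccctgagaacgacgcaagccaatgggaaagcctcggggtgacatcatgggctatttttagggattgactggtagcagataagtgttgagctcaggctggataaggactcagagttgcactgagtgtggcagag
Junb, chr8:84978699-84978998, minus strand: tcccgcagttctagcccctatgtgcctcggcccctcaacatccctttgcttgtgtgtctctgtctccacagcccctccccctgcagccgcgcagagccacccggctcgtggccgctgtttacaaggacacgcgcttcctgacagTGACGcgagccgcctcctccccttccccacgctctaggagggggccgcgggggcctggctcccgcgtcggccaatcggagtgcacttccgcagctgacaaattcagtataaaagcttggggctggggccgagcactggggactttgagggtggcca
Egr4, chr6:85513540-85513839, minus strand: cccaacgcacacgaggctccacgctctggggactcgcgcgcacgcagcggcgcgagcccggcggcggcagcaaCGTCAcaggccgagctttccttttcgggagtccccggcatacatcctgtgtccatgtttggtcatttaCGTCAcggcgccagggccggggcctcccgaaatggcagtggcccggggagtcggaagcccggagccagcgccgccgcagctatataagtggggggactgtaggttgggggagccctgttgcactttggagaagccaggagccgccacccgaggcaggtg
The Jun window holds 0 such cores, the Junb window 1 and the Egr4 window 2, and none holds the palindrome. Over 27025 RefSeq promoters of this length, 21.0% hold the core and 1.88% the palindrome. Of the 34 immediate early genes with an entry, 20 hold the core and 3 the palindrome. These are matches of letters and do not show binding.

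Of 27 genes of cyclic AMP and CREB signalling 12 lay above 0, with a median of -0.012, 2 higher and 1 lower at an unadjusted p under 0.05. Over all genes 47.8% lay above 0, and 2.94% lay higher and 2.49% lower at that p. The regulatory subunits of protein kinase A, Prkar2b and Prkar2a, stood at 0.20 ± 0.0705 (SE) and 0.10 ± 0.0385 (SE), and the cyclase Adcy6 at -0.10 ± 0.048 (SE). Bdnf, the neurotrophin most often linked with antidepressants, had counts of 841.1, 919.2 and 1037 under fluoxetine and 739.5, 902.8 and 1001 under vehicle. The ranges overlapped over most of their width, with a difference of 0.085 ± 0.0625 (SE). Its receptor pathway list had a median of -0.0225, with 7 of 19 above 0. Glucocorticoid responsive genes had a median of -0.002, with Fkbp5, a cochaperone of the receptor, at 0.19 ± 0.10 (SE) and the stress gene Ddit4 at -0.19 ± 0.077 (SE).

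Tissue markers differed most in size. Striatal genes lay above 0 in 22 of 23, with a median of 0.62 and 6 higher at an unadjusted p under 0.05 (2.94% of all genes), and their summed counts ranged from 23125 to 50474 under fluoxetine and from 22465 to 26778 under vehicle. Without HT fluoxetine female 2, males 1 and 2 and female 1, the median was 0.068, and with the marker covariates it was -0.013. Those libraries were picked by the striatal and olfactory lists, and the covariates are the means of those lists. Both medians thus lie nearer 0 by construction and do not test the striatal difference. Drd2, the dopamine receptor of indirect-pathway striatal neurons, reached 615.5, 296.2 and 560.4 in HT fluoxetine female 2 and males 1 and 2, stood between 34.05 and 142.8 in the other 5 fluoxetine libraries, and between 17.4 and 100.7 under vehicle. The groups overlapped outside those 3 libraries. Isl1, a transcription factor of striatal cells, was listed at 0 in 5 of 6 vehicle libraries and in 3 of 8 fluoxetine libraries, and at 51.46, 55.48 and 40.68 in the same 3 libraries. The cholinergic genes Chat and Slc10a4, chosen after their values were seen, were highest in them too, with Chat at 51.46, 32.18 and 31.53. Chat stood between 9.458 and 19.95 in the other fluoxetine libraries and between 4.806 and 10.3 under vehicle.

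The dopamine and adrenergic list had a median of 0.069, 0.052 without the 4 libraries and -0.017 with the covariates, and the neuropeptide list 0.045, 0.059 and -0.0058. HT fluoxetine male 4, which was kept in the fits without the 4, had a striatal list mean of 0.41 (log2, centred on 29 libraries). The highest under vehicle was -0.0654. Of single genes, Drd1 stood at 0.87 ± 0.48 (SE) in the 14 libraries, at 0.34 without the 4 and at -0.082 with the covariates. The opioid peptide gene Penk stood at 0.43 ± 0.26 (SE), and at -0.14 without the 4. Tac1, the precursor of substance P, stood at 0.80 ± 0.25 (SE) and at 0.46 and 0.33 under both alternatives, and Nts, neurotensin, at 1.30 ± 0.56 (SE) and at 0.44 and 0.30. Adra1d, an adrenergic receptor of cortical neurons, lay the other way at -0.26 ± 0.077 (SE), with -0.16 and -0.17. Olfactory genes had a median of -0.41, with 4 of 20 above 0. Their medians were -0.36 without the 4 libraries and -0.0225 with the covariates. HT fluoxetine female 1 held the highest summed count of the 14 libraries at 39826. The mean of the olfactory list is itself a covariate, and Drd1, Penk and Tac1 belong to the striatal list. Their values with the covariates are therefore drawn toward 0 by construction. The part of these marker levels in the other differences was not tested, and in bulk tissue fewer cells of a type and less RNA per cell cannot be told apart.

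**Figure D4:**
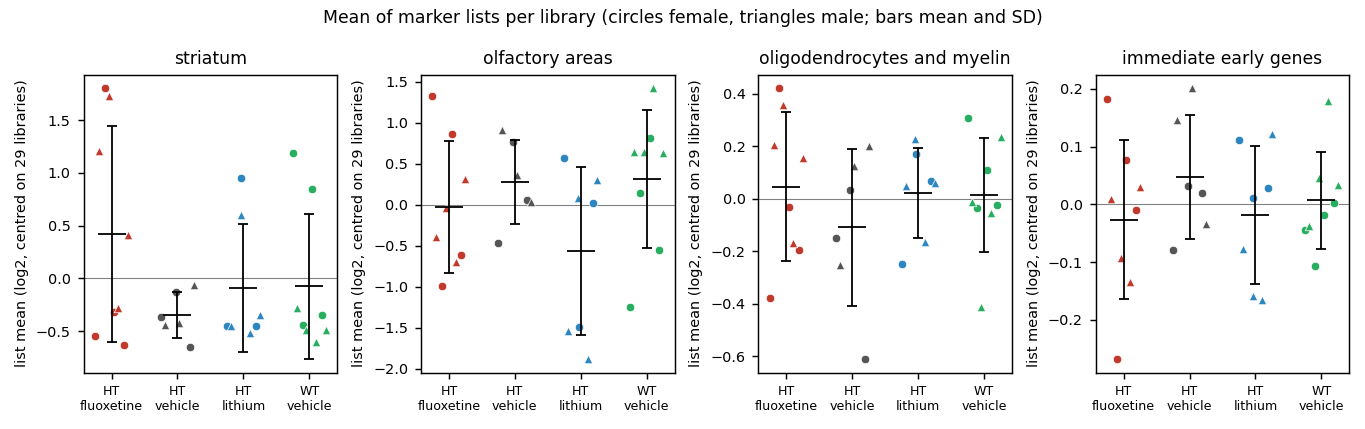
Mean over the genes of 4 lists per library (log2, centred on all 29 libraries) in HT fluoxetine, HT vehicle, HT lithium and WT vehicle mice, with circles for females, triangles for males and bars for mean and SD. Striatal means reach 1.8 in HT fluoxetine and stay at -0.0654 or below in HT vehicle, while the means of immediate early genes overlap in all groups.

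Myelin genes lay above 0 in 25 of 28, with a median of 0.17. Only 1 (Aspa) was at an unadjusted p under 0.05, where 2.94% of all genes lay higher at that p. Summed myelin counts ranged from 97851 to 190920 under fluoxetine and from 83870 to 154016 under vehicle. The median was 0.039 without the 4 libraries and -0.042 with the covariates. Oligodendrocyte precursors had a median of 0.035, with 12 of 18 genes above 0 and 6 below. That median was 0.0028 without the 4 libraries and -0.0043 with the covariates. The members ranged from -0.165 to 0.31, with Enpp6, a marker of newly formed oligodendrocytes, at 0.31 ± 0.12 (SE).

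Astrocyte genes were divided. Of 24 genes 11 lay above 0, with a median of -0.006, 2 higher and 3 lower at an unadjusted p under 0.05, beside 2.94% and 2.49% of all genes. Besides Aldh1l1, the glycolytic enzyme Aldoc stood at -0.12 ± 0.043 (SE) and the acyl-CoA synthetase Acsbg1 at -0.11 ± 0.043 (SE). The gap junction gene Gja1 stood at 0.091 ± 0.037 (SE) and the water channel Aqp4 at 0.17 ± 0.071 (SE). The summed astrocyte count ranged from 246283 to 277321 under fluoxetine and from 258970 to 272840 under vehicle, so the groups overlapped. Folate enzymes, the pathway of Aldh1l1, had a median of -0.036 with 10 of 32 above 0. Dld, a shared subunit of dehydrogenase complexes and of glycine cleavage, stood at 0.11 ± 0.044 (SE).

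Microglia, vessels, meninges and interneurons had medians between -0.007 and 0.036. For interneurons 13 of 27 genes lay above 0, and for microglia 15 of 23 with 0 at an unadjusted p under 0.05. In vessels Slc2a1, the glucose transporter of the blood-brain barrier, stood at 0.16 ± 0.071 (SE). Neurons of the upper layers had a median of -0.0565 with 4 of 18 above 0, and the same median without the 4 high-marker libraries. The layer 5 list had a median of 0.013, 0.055 without the 4 libraries and -0.022 with the marker covariates. For layer 6 these medians were 0.068, 0.032 and -0.0675, with 17, 13 and 6 of 22 genes above 0.

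The drug difference depended on sex past the threshold for 1 gene (0.00573%), Ndufa1, a subunit of mitochondrial complex I, in the limma interaction term. Fluoxetine females held 1006 ± 64.8 (SD, n = 4) and vehicle females 1382 ± 59.9 (SD, n = 3) counts. Males held 1454 ± 65.1 (SD, n = 4) under fluoxetine and 1183 ± 122 (SD, n = 3) under vehicle. The drug difference of males minus that of females was 0.76 (limma adjusted p = 0.0374), and 10.6% of genes had an unadjusted p under 0.05 for this term.

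**Figure D5:**
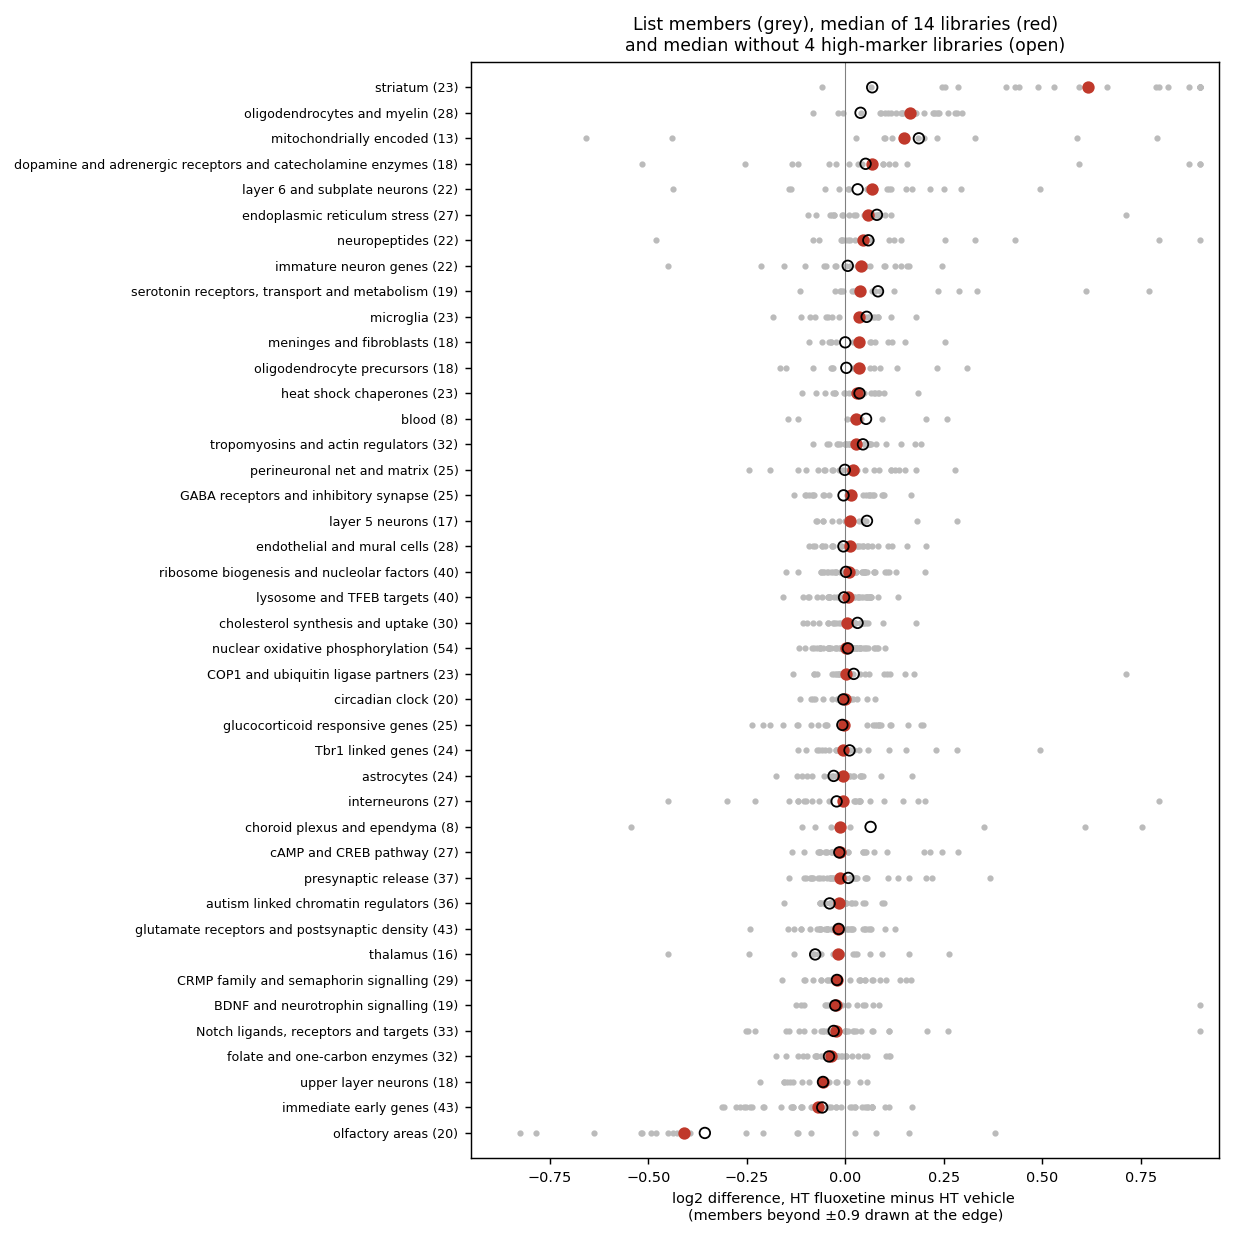
Log2 difference of HT fluoxetine minus HT vehicle (x axis) for the tested members (grey) of 42 gene lists, with the number tested in brackets, their median over 14 libraries (red) and their median without the 4 high-marker libraries (open). Outside the striatal, olfactory, myelin and mitochondrially encoded lists, medians over 14 libraries lie between -0.0702 and 0.0689 and medians without the 4 libraries between -0.0763 and 0.0832.

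In the list of COP1 and ubiquitin ligase partners, 6 of 23 genes lay higher and 1 lower at an unadjusted p under 0.05. Over all genes these shares were 2.94% and 2.49%, and the list median was 0.002. Cop1 itself had counts of 1576, 1761 and 1891 under fluoxetine and 1528, 1571 and 1648 under vehicle. The groups overlapped only by the lowest fluoxetine library, with a difference of 0.15 ± 0.041 (SE). The signalosome subunits Cops3 and Cops4 stood at 0.099 ± 0.033 (SE) and 0.11 ± 0.042 (SE), and the adaptors Trib2 and Trib3 at 0.11 ± 0.044 (SE) and 0.71 ± 0.29 (SE), Trib3 from few counts. Cop1, Rbm34, Dpysl4 and Jag2 led earlier results of these data, and the COP1 list was written with them known. Its counts beside those of all genes are therefore no test of the list.

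Endoplasmic reticulum stress genes had a median of 0.057, with 19 of 27 above 0 and 4 higher at an unadjusted p under 0.05, beside 47.8% and 2.94% of all genes. The median was 0.080 without the 4 high-marker libraries, 0.027 with the marker covariates and 0.027 without HT fluoxetine male 4. The lectin chaperone Canx stood at 0.12 ± 0.048 (SE), the disulfide isomerase Pdia3 at 0.10 ± 0.045 (SE) and the cochaperone Dnajc3 at 0.088 ± 0.038 (SE). Tropomyosins and actin regulators had 24 of 32 above 0 and a median of 0.027, with the depolymerising factor Cfl2 at 0.14 ± 0.062 (SE). Ribosome biogenesis factors had a median of 0.009, with 3 higher and 2 lower at that p (2.94% and 2.49% of all genes), among them Rrp9 at -0.15 ± 0.049 (SE) and Utp3 at 0.13 ± 0.049 (SE).

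Glutamate receptor and postsynaptic density genes had a median of -0.017 with 14 of 43 above 0. Grin1 was the 1 gene at an unadjusted p under 0.05, where 2.49% of all genes lay lower at that p. Homer1, a scaffold with an activity-induced short form, stood at 0.10 ± 0.049 (SE). Inhibitory synapse genes had a median of 0.013, with the adhesion protein Nlgn2 at -0.085 ± 0.037 (SE). Presynaptic release genes had a median of -0.013, with the calcium sensor Doc2b at 0.37 ± 0.16 (SE) and at 0.195 and 0.15 without the 4 libraries and with the covariates. Autism-linked chromatin regulators had a median of -0.016 with 9 of 36 above 0, and 0.012 with 22 of 36 above 0 under the marker covariates. Circadian, cholesterol, lysosome and heat shock lists had medians between -0.002 and 0.031.

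Tbr1 did not separate the groups. Its counts were 2858, 4275 and 4766 under fluoxetine and 3728, 3919 and 4593 under vehicle, and the vehicle range lay inside the fluoxetine range. HT fluoxetine female 1, the library with high olfactory markers, held the lowest value. The difference was 0.023 ± 0.096 (SE; limma adjusted p = 0.984), with an interval from -0.18 to 0.23. Genes linked to Tbr1 had a median of -0.005 with 11 of 24 above 0. The transcription factors Nfia, Nfib and Bcl11b stood at 0.23 ± 0.079 (SE), 0.16 ± 0.062 (SE) and 0.28 ± 0.13 (SE), and Bcl11b at 0.12 with the marker covariates.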

How the data were processed

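Bulk RNA-seq of the prefrontal cortex was deposited as 1 table of 18240 genes by 29 libraries. The deposited values are a signal that the authors made by dividing whole read counts by 1 size factor per library: all values (100.0%) were whole multiples of a library's step within 0.0001 reads. Per the submitters' processing notes, Salmon 0.11.2, R 3.6.0, DESeq2 1.19.11 and GRCm38 were used. The kit was stranded per the labels' protocols, while the strand setting, annotation release and gene filter are not given in the sources used here. Gene names were matched to GENCODE M21 for 18227 genes.

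Genes at 10 or more in at least 3 of the 14 libraries were tested on log2(value + 1), which understates differences of low genes, with limma 3.58.1 (R 4.3.3; intensity trend, sex covariate, 11 residual degrees of freedom, 15.69 after moderation). Calls were at a Benjamini-Hochberg adjusted p of 0.05. Recovered reads were tested with edgeR 4.0.16 and DESeq2 1.42.0 as alternatives. The scripts were tested on simulated data. Intervals are 95% intervals. Python 3.11.15, pandas 2.3.3, SciPy 1.17.1 and matplotlib 3.10.9 were used for sums, permutation tests and plots. Alternatives were scaling, pseudocounts of 0.5 and 10, filters, moderation, library weights, all 29 libraries, the sex term, a replicate block, marker covariates and left-out libraries.

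The named genes were, per direction, up to 12 by p with a mean of at least 50, the 5 largest differences among non-overlapping genes, up to 4 by p from each of 42 lists, Tbr1 and the serotonin list. Adora2a, Aqp4, Chat, Cops4, Egr1, Fos, Ier2, Mbp, Mog, mt-Co2, Slc10a4, Slc17a7, Prom2, A930016O22Rik and the copy genes were named after their values were seen. The members and the lists were chosen with earlier results of these data known. Libraries are named by the replicate numbers of their titles. Some results are not reported here.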

Additional observations from a re-analysis of the deposited data

Results flagged for a closer look

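Among 474 groups of 8 fluoxetine or 6 vehicle values examined, 34 held a library whose distance to the nearest other exceeded Dixon's 95% critical value, where chance gives about 1 in 20 groups. Causes were not tested. HT fluoxetine female 1 was the lowest of its group for Tbr1 (2858.4), Msmo1 (1246), Dnaja1 (7155), Timp2 (7590.8), Gap43 (4024.9), Nfia (649.2) and Lhx6 (252.6). It was also lowest in the mean of the tropomyosin (-0.0746), cholesterol (-0.1936) and layer 5 (-0.2268) lists, all log2 about the mean of 29 libraries. HT fluoxetine female 2 was the lowest for Arc (5653.6), Junb (1839.7) and Fcer1g (99.95). HT fluoxetine female 3 was the lowest for Mcoln1 (1907.3), female 4 the highest for mt-Atp8 (41058.7) and male 1 the highest for Zbtb17 (1197.2). HT fluoxetine male 4 was the lowest for Ntrk3 (4700.1), Setd2 (1992.6) and the glutamate list mean (-0.1451), and the highest in the ribosome biogenesis (0.06) and lysosome (0.0639) list means.

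Among vehicle libraries, HT vehicle male 2 was the lowest for Adcy6 (1935.6), Slc12a5 (18577.5) and Lrrc10b (51.25) and the highest for Actr2 (8276.1) and Tbl1xr1 (1841.6). HT vehicle male 1 was the highest for Pcdh15 (1496.9) and the lowest for Slc2a1 (2477.3). HT vehicle female 3 was the lowest for Aspa (177.3) and for the dopamine and adrenergic (-0.3138) and perineuronal net (-0.1709) list means, and the highest for Kl (82.67). HT vehicle female 1 was the highest for Setd4 (227.7) and the only vehicle library with Isl1 above 0 (1.174).

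The difference between drug and vehicle depended on sex for Ndufa1, on the X chromosome, and for no other of 17457 genes, with 1856 at an unadjusted p under 0.05 in the limma interaction term. The male difference minus the female difference was 0.7607 on the log2 scale (limma adjusted p = 0.0374).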

How the results depend on the processing

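In all 32 alternatives 0 genes were called, with 702 to 1851 genes at an unadjusted p under 0.05 against 948 as reported (1765 with library weights). The count of genes whose libraries do not overlap, 11 as reported, was 301 without the 4 high-marker libraries (173 higher, 128 lower) and 14 to 72 when any 1 library was left out, the extremes being without HT fluoxetine female 2 and female 1. It was 54 without HT vehicle male 2 and 39 without HT vehicle female 2. Fewer libraries by construction make separation easier. With marker covariates the sign turned for Drd1 (-0.0819), Adcy5 (-0.0365), Penk (-0.013), Sulf1 (-0.0046), Tnnt1 (-0.0408), Mbp (-0.0275) and Mog (-0.0875). Drd1, Adcy5 and Penk belong to the striatal list whose mean is a covariate, which draws their differences toward 0 by construction. Without the high-marker libraries the sign turned for Penk (-0.144) and Tnnt1 (-0.1531). Under quantile normalisation, which narrows differences of very abundant genes, it turned for mt-Nd1 (-0.0041). The cause of these turns was not tested. Of 206 named genes, 18 had a difference under their own SE, whose sign was not followed. Of 1218 list medians under alternatives, 1216 moved by less than 1 SD, the others being serotonin with marker covariates (0.1231) and choroid plexus without HT vehicle male 2 (0.2395). Equal replicate numbers of the titles did not pair the libraries: same-numbered deviations correlated between -0.216 and 0.0136, and 1 of 6 matched its own number best. The replicate block, also by title numbers, gave 0 calls and 702 genes at an unadjusted p under 0.05. Library names number the HT vehicle females otherwise, and pairing by those numbers was not tested. Depth limits low genes: intervals lay inside 1.5-fold for 85.1% of all genes and 99.2% of those with a mean of at least 1000.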
